A study of Homo sapiens with 9 samples.

Results

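Histone lysine demethylases remove methyl groups from lysines of histone tails and so act against the histone methyltransferases. The 10 demethylase genes described here, KDM1A, KDM2A, KDM2B, KDM3A, KDM4A, KDM4B, KDM4C, KDM5A, KDM5B and KDM6B, were taken by symbol from a table of 60683 Ensembl genes. RNA was sequenced from 9 cultures of Hep3B, a line grown from a human liver tumour, which formed 3 groups of 3. Cells in 6-well plates received DMSO vehicle at 20% O2, DMSO vehicle at 1% O2 or 32-134D at 1% O2, and RNA was taken after 24 hours. The labels call the 3 cultures of a group biological replicates, give DMEM/F12 as the medium and state no dose of 32-134D. 32-134D is a compound selected for inhibition of hypoxia-inducible factors (HIFs), the transcription factors that accumulate when oxygen is low. No library combined 32-134D with 20% O2, so an action of the compound apart from hypoxia could not be examined.

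KDM1A is an amine oxidase that uses FAD as its cofactor, whereas the other members carry a Jumonji C domain and use iron, 2-oxoglutarate and molecular oxygen. Oxygen is therefore a substrate of the Jumonji enzymes, and KDM3A and KDM4B are among the textbook HIF target genes. Only RNA was measured here, and neither enzyme activity nor histone methylation was assayed.

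Total counts ran from 6013980 to 40549699 per library, and the members had between 233 and 28344 counts per library. All 10 members passed the filter on low counts, among 22672 genes tested. Mitochondrial genes took 3.83% to 4.57% of the counts. ALB, encoding albumin, lay between 5948 and 10208 CPM (counts scaled to a common library size). Of the 7 liver markers, 2 were called lower with hypoxia, and 1 higher and 2 lower with 32-134D. APOB, encoding apolipoprotein B, was at 3256 to 5256 CPM at 20% O2, 377 to 423 CPM in vehicle at 1% O2 and 2707 to 3968 CPM with 32-134D. With 32-134D, TTR ran from 9.79 to 37.9 CPM and FGB from 6.86 to 33.5 CPM, a wide spread within 1 group. Both genes lay below all vehicle libraries at 1% O2. TTR also lay below the libraries at 20% O2, whereas the FGB range overlapped with that at 20% O2. Of 7 markers of other cell types, KRT5 (squamous epithelium) and ACTA2 (stellate cells) had 0 counts in all 9 libraries and PTPRC (blood cells) at most 3. VIM, the mesenchymal marker that made up nearly all of their summed level, was at 859 to 919 CPM in vehicle at 1% O2 and at 379 to 457 CPM in the other libraries. That sum was 864 to 922 CPM in vehicle at 1% O2, 388 to 429 CPM at 20% O2 and 414 to 464 CPM with 32-134D, whereas PECAM1, COL1A1 and COL1A2, all below 11 CPM, fell with hypoxia. The part of these markers in the results below was not tested. Replicate 3 of 32-134D stood apart, with a chi-square over its degrees of freedom (1 for sampling noise alone) of 36.4 and 32.5 against replicates 1 and 2, which differed from each other by 1.998. Replicate 1 of each vehicle group differed from the other 2 of its group by 6.21 and 12.0 at 20% O2 and by 7.90 and 11.8 at 1% O2. Values that rest on 1 library are given with and without it. Fewer cells of a kind and less RNA per cell cannot be told apart in such bulk libraries.

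At 1% O2, the transcripts of 2 of the 10 demethylases rose and none fell. KDM3A rose 11.4-fold and KDM4B rose 2.39-fold, and both encode enzymes that act on methylated lysine 9 of histone H3 (H3K9). Of all genes tested, 39.7% passed the same thresholds in this comparison, 19.5% as higher and 20.3% as lower, so a count of 2 in 10 is not above the background. The thresholds were an FDR below 0.05 in the edgeR quasi-likelihood test and a fold change above 1.5. The median log2 fold change of the members was 0.24, and it was 0.04 with upper quartile scaling and 0.02 with scaling by total counts, which moved the median of all genes by -0.19 and -0.21.

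KDM3A, which removes mono- and dimethyl marks from H3K9, had 67.0, 66.4 and 75.1 CPM in the 3 libraries of vehicle at 20% O2. It had 751, 809 and 828 CPM in vehicle at 1% O2. With 32-134D at 1% O2 it had 229, 223 and 194 CPM. The 3 groups formed 3 separate bands, with every 32-134D library below every vehicle library at 1% O2 and above every library at 20% O2. The log2 fold change with hypoxia was 3.51 (SE 0.09, FDR 1.67e-12). Counts of KDM3A in the libraries at 20% O2 ran from 423 to 2470, so depth did not limit this value.

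The KDM4 enzymes act on trimethylated H3K9 and on H3K36. KDM4B had 89.1, 102 and 101 CPM at 20% O2, 226, 228 and 244 CPM at 1% O2, and 106, 111 and 102 CPM with 32-134D. Its 3 hypoxic vehicle libraries were the 3 highest of the 9, and the 32-134D libraries were close to those at 20% O2. The log2 fold change with hypoxia was 1.26 (SE 0.08, FDR 3.47e-09). KDM4A, which has the same arrangement of domains, had 54.5, 57.9 and 58.9 CPM at 20% O2 and 62.6, 61.3 and 59.9 CPM at 1% O2, a log2 fold change of 0.10 with a 95% confidence interval from -0.05 to 0.25, which was -0.11 with scaling by total counts. KDM4C had 34.3, 36.6 and 36.3 CPM at 20% O2 and 40.4, 41.9 and 43.1 CPM at 1% O2, and its log2 fold change of 0.23 had an FDR of 0.113. Without replicate 3 of 32-134D, which enters the same fit, the value was 0.22 (FDR 0.0147), short of the fold threshold. Of the 3 KDM4 genes, KDM4B alone was called.

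**Figure D1:**
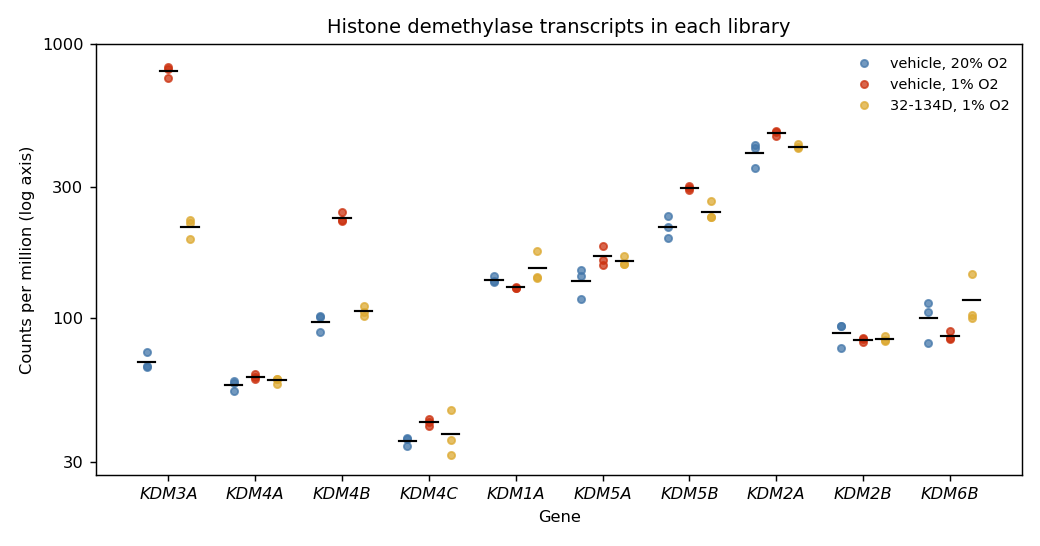
CPM of the 10 demethylase genes in each of the 9 libraries, on a log axis, with points for libraries coloured by group and black bars for the mean of 3 libraries. KDM3A sits near 70 CPM at 20% O2, near 800 CPM in vehicle at 1% O2 and near 215 CPM with 32-134D, and KDM4B is the only other gene whose hypoxic vehicle libraries stand far above both other groups.

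HIFs bind DNA at a core sequence spelled ACGTG or GCGTG, and the 250 bases before each annotated transcription start were searched for both on both strands. RefSeq sequences of GRCh38.p14 held 16 start sites for the 10 members. A core was present in 13 of the 16 windows, and in 43.2% of 35116 promoters of the same length (ACGTG in 18.5%, GCGTG in 32.2%, 2 or more cores in 19.4%). Each of the 10 genes had a core in at least 1 window, but a gene had up to 4 windows, so this is not a share of promoters. Both cores contain CG, and the GC content of the 16 windows ran from 50.4% to 83.6%. The shares were not compared at like GC content, and the difference between them was not tested. The window of KDM4B, called in both comparisons and with 4 cores, is shown in full. None of its bases lies in an annotated exon. It spans chr19:4968863-4969112 on the plus strand, with the cores in capitals.
KDM4B: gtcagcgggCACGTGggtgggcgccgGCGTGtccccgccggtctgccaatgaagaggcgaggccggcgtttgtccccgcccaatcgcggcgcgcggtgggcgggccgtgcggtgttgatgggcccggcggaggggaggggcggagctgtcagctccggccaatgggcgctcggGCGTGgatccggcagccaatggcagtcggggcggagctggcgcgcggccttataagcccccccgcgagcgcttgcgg
Its first capitals hold ACGTG on both strands, 1 base apart, so that the window counts 4 cores from 3 places. For KDM3A and the uncalled relatives KDM4A and KDM4C, 27 bases around each core are shown, all from the plus strand, from windows at chr2:86441121-86441370, chr1:43649899-43650148 and chr9:6757723-6757972.
KDM3A: cgggaggctgtGCGTGtcttgtgagag
KDM4A: gtggctgcggcGCGTGctcattggctg
KDM4C: ccaaagcaagaGCGTGccgggcacctt
KDM4C: gtttgtaagccCACGTGactcaccaag
KDM4C: gccccagcggtCACGTGacggcgcgcg
The KDM3A core lies 26 bases before 1 start site and 116 before the next one, whose windows overlap, so it is 1 place counted in both. KDM4C had 5 cores from 3 places, the most of any member, without a call in any comparison, and KDM3A, with the largest change, had 1. Annotated exons cover all 250 bases of the KDM4C window, 223 and 234 of the KDM3A windows and 0 of the KDM4A window. The windows are therefore not alike in how much annotated exon they hold. A match is a description of these letters and not a binding site.

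Among the demethylases of H3K4, the transcripts stayed below the fold threshold in hypoxia. KDM5B, which removes di- and trimethyl marks from H3K4, had 196, 216 and 235 CPM at 20% O2 and 299, 295 and 305 CPM at 1% O2. Its log2 fold change of 0.47 (SE 0.08, FDR 0.000142) passed the FDR but corresponds to 1.39-fold. KDM5A, of the same function, had 118, 142 and 149.7 CPM at 20% O2 and 184, 163 and 157 CPM at 1% O2, a log2 fold change of 0.30 (FDR 0.0126) that was 0.15 (FDR 0.146) without replicate 1 of vehicle at 20% O2 and 0.23 (FDR 0.0713) without replicate 1 of vehicle at 1% O2. After correction of every library for trends with transcript length and GC content, KDM5A reached 0.60 and KDM5B 0.79, and both then passed the thresholds. These were the highest values of the 19 alternatives run. The lowest were 0.086 for KDM5A, whose FDR went up to 0.462, and 0.26 for KDM5B, whose FDR went up to 0.0121. KDM1A had 136, 142 and 137 CPM at 20% O2 and 129.9, 129.5 and 129.3 CPM at 1% O2, a log2 fold change of -0.09 (FDR 0.379).

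KDM2A and KDM2B demethylate H3K36 and bind unmethylated CpG islands through a CXXC zinc finger. KDM2A had 353, 417 and 427 CPM at 20% O2 and 477, 482 and 461 CPM at 1% O2, a log2 fold change of 0.25 (FDR 0.0133). Without replicate 1 of vehicle at 20% O2, its lowest library, the value was 0.11 (FDR 0.127). The FDR was 0.0628 without replicate 1 of 32-134D and 0.0532 without replicate 2 of vehicle at 1% O2. Over the 19 alternatives run, the KDM2A value lay between 0.03 and 0.40, with an FDR of up to 0.744. KDM2B had 78.0, 93.6 and 94.0 CPM at 20% O2 and 81.7, 84.6 and 84.1 CPM at 1% O2, and its log2 fold change was -0.08 (FDR 0.391). Without replicate 1 of vehicle at 20% O2 it was -0.22 (FDR 0.00994), still short of the fold threshold.

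KDM6B, an H3K27 demethylase that stress and inflammatory signals induce in many cells, had 81.5, 106 and 114 CPM at 20% O2 and 90.0, 84.3 and 84.5 CPM at 1% O2. The groups overlapped, and the log2 fold change of -0.22 had a 95% confidence interval from -0.52 to 0.08. With 1 library left out it lay between -0.41 (FDR 0.0222, without replicate 1 of vehicle at 20% O2) and -0.12 (FDR 0.576, without replicate 3 of that group), and with the length and GC trends removed it was 0.12. Of the 8 members without a call, 7 had an interval that lay wholly inside the 1.5-fold limits, the exception being KDM5B with an upper limit of 0.65.

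With 32-134D at 1% O2, the same 2 genes fell against vehicle at 1% O2 and no member rose. KDM3A fell 3.70-fold, with a log2 fold change of -1.89 (SE 0.08, FDR 6.09e-10), and KDM4B fell 2.19-fold, with a log2 fold change of -1.13 (SE 0.07, FDR 2.57e-08). Of all genes tested, 29.9% were called in this comparison, 13.7% as lower and 16.2% as higher. This comparison uses the same hypoxic vehicle libraries as the one with hypoxia, so the opposite directions are not independent of each other. The median log2 fold change of the members was -0.10, but 0.02 with upper quartile scaling and 0.09 with scaling by total counts, which moved the median of all genes by 0.12 and 0.19.

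The other H3K9 enzymes were not called with the compound. KDM4A had 60.02, 57.8 and 60.2 CPM with 32-134D, a log2 fold change of -0.05 with a 95% confidence interval from -0.19 to 0.10, and of 0.14 with scaling by total counts. KDM4C had 35.9, 31.6 and 46.2 CPM, the highest in replicate 3, and a log2 fold change of -0.14 (FDR 0.320). With 1 library left out the value lay between -0.30 (FDR 0.00266, without replicate 3 of 32-134D) and -0.03 (FDR 0.868, without replicate 2 of 32-134D), below the fold threshold throughout.

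Among the H3K4 enzymes, KDM5B had 233, 234 and 267 CPM with 32-134D, all below the hypoxic vehicle libraries. Its log2 fold change of -0.29 (SE 0.08, FDR 0.00730) did not pass the fold threshold, and it was -0.36 (FDR 0.000148) without replicate 3 of 32-134D. Its FDR was 0.103 without replicate 1 of 32-134D or without replicate 3 of vehicle at 1% O2. With the length and GC trends removed the log2 fold change was -0.65 and passed. Over the 19 alternatives run, the KDM5B value lay between -0.65 and -0.10, with an FDR of up to 0.306. KDM5A had 158, 158 and 169 CPM, inside the range of the hypoxic vehicle libraries, and a log2 fold change of -0.06 (FDR 0.649), which was 0.13 with scaling by total counts. KDM1A had 142, 139.9 and 176 CPM, and a log2 fold change of 0.23 (FDR 0.0331). Without replicate 3 of 32-134D it was 0.12 (FDR 0.144), and the FDR was 0.0735 and 0.0824 without replicates 1 and 2 of vehicle at 1% O2.

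KDM2A had 417, 419.9 and 430.3 CPM with 32-134D, below the 3 hypoxic vehicle libraries, with a log2 fold change of -0.16 (FDR 0.0911). Without replicate 3 of 32-134D the value was -0.18 (FDR 0.0487), still short of the fold threshold. KDM2B had 86.4, 82.8 and 83.0 CPM and a log2 fold change of 0.01 (95% confidence interval from -0.16 to 0.18). KDM6B had 100.3, 102 and 146 CPM, and replicate 3 again stood highest. Its log2 fold change was 0.43 (SE 0.14, FDR 0.0183), or 1.34-fold, and it was 0.23 (FDR 0.0341) without replicate 3 and 0.41 (FDR 0.0589) without replicate 2 of vehicle at 1% O2. When libraries were scaled by their total counts alone, KDM6B reached 0.61 and passed the fold threshold. Over the 19 alternatives run, the KDM6B value lay between 0.19 and 0.61, with an FDR of up to 0.212. Of the 8 members without a call, KDM6B was the one whose interval, from 0.13 to 0.72, reached past 1.5-fold.

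**Figure D2:**
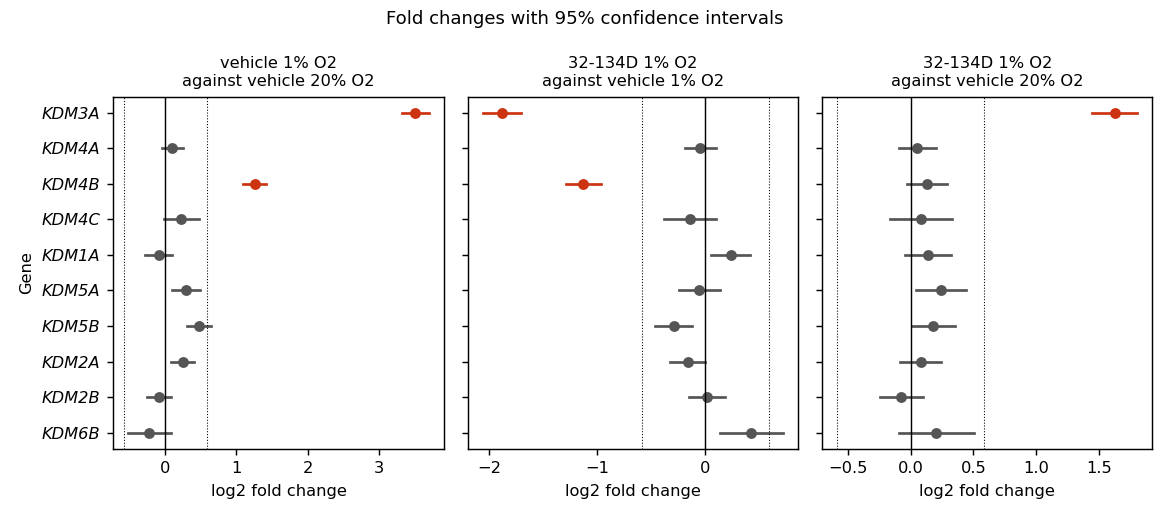
Log2 fold changes of the 10 genes from 1 edgeR fit of 9 libraries, with bars for the 95% confidence interval, red for calls and dotted lines at 1.5-fold, in 3 panels that each have an x axis of their own. KDM3A is called in the 3 comparisons, at 3.51, -1.89 and 1.63, and KDM4B in the first 2, at 1.26 and -1.13.

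Against vehicle at 20% O2, 1 member remained changed in hypoxic cells given 32-134D. KDM3A was still 3.08-fold higher, with a log2 fold change of 1.63 (SE 0.08, FDR 3.10e-08). KDM4B had a log2 fold change of 0.13 (FDR 0.309), with a 95% confidence interval from -0.03 to 0.29. Each of its 32-134D libraries was above each library at 20% O2, the closest at 101.8 and 101.6 CPM. Over the 19 alternatives run, its value lay between 0.06 and 0.22, with FDR from 0.0377 to 0.688, below the fold threshold throughout. Of all genes tested, 3.52% were called in this comparison, 681 as higher and 117 (0.516%) as lower. The intervals of the other 9 members, KDM4B included, lay inside the 1.5-fold limits. KDM5A was at 0.24 (FDR 0.114), KDM6B at 0.21 (FDR 0.400) and KDM2B at -0.07 (FDR 0.633).

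The position of the 32-134D libraries between the vehicle groups also differed in value between the 2 genes. On the log2 CPM scale, 0% marks the mean of vehicle at 1% O2 and 100% the mean of vehicle at 20% O2. The 3 KDM3A values were 51.1%, 52.2% and 57.8%, a mean of 53.7% ± 3.57 (SD, n = 3). Those of KDM4B were 90.0%, 84.4% and 94.5%, a mean of 89.6% ± 5.07 (SD, n = 3). The vehicle means enter all 6 values, so this is a description and was not tested.

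A list of 7 known HIF targets (CA9, ANGPTL4, VEGFA, NDRG1, EPO, LDHA and SLC2A1), chosen with results of these data known, serves as a scale for these numbers. All 7 rose with hypoxia, by log2 fold changes from 2.45 to 5.43, and all 7 fell with 32-134D, with values from -3.85 to -1.81, except that 6 could be tested where 10 counts were required in every library. Against vehicle at 20% O2, 6 of the 7 stayed higher in the 32-134D libraries, with a median over the 7 of 1.03. KDM3A lay within the range of the list in all 3 comparisons, and KDM4B lay outside it in each.

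To compare levels between genes, CPM was divided by the length in kilobases of all annotated exons of the gene. At 20% O2, KDM3A was 9th of the 10 members, at 5.18 ± 0.36 CPM per kilobase (SD, n = 3), and above KDM4C alone, at 3.46 ± 0.12. In vehicle at 1% O2 it was 1st, at 59.3 ± 2.96, above KDM2A at 45.6 ± 1.06, and their libraries did not overlap. With 32-134D it was 3rd, at 16.0 ± 1.36, and overlapped with KDM6B at 16.0 ± 3.52. KDM2A was highest in the other 2 groups, at 38.4 ± 3.88 and 40.7 ± 0.68, and KDM1A followed it at 25.4 ± 0.65 and 28.0 ± 3.77.

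The lower ranks were less distinct. At 20% O2, KDM6B overlapped with KDM5A and KDM5A with KDM4A (13.8, 11.3 and 11.04 CPM per kilobase), as did KDM4B with KDM2B (6.60 and 6.50). KDM4B was 7th there, 4th in vehicle at 1% O2 at 15.8 ± 0.66, and 8th with 32-134D at 7.22 ± 0.32. KDM4C was lowest in the 3 groups. With the length of the longest transcript in place of the exons, KDM3A kept the ranks 9, 1 and 3, KDM4B was 4th, 4th and 5th, and 28 of the 30 levels moved by more than 1 SD. The order among the middle genes thus depends on the length used.

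**Figure D3:**
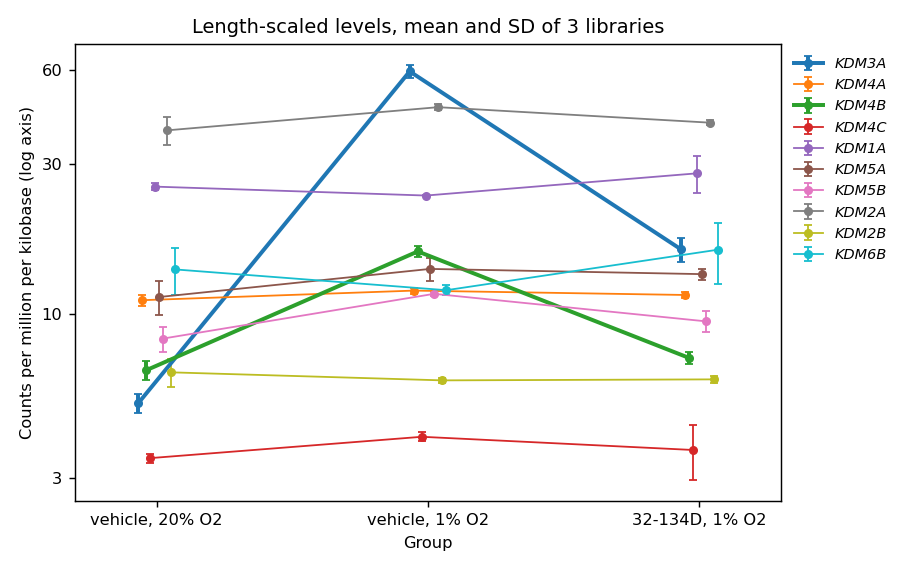
CPM per kilobase of exon for the 10 genes in the 3 groups, on a log axis, with points and bars for the mean and SD of 3 libraries and thicker lines for KDM3A and KDM4B. KDM3A goes from 5.18 at 20% O2 to 59.3 in vehicle at 1% O2, crossing the 8 genes above it, and to 16.0 with 32-134D.

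The summed level of the 10 members also differed between the groups. The 10 members together had 130.1 ± 10.5 CPM per kilobase (SD, n = 3) at 20% O2, 203.9 ± 1.37 in vehicle at 1% O2 and 152.1 ± 8.39 with 32-134D. KDM3A made up 4.22%, 3.68% and 4.07% of this sum in the libraries at 20% O2. Its share was 27.7%, 29.4% and 30.1% in vehicle at 1% O2, and 11.5%, 11.3% and 8.95% with 32-134D. The groups did not overlap in this share.

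Ratios between related genes within a library do not depend on how libraries were scaled. KDM3B is the close relative of KDM3A with the same H3K9 activity. The log2 ratio of KDM3A to KDM3B was -1.505, -1.85 and -1.75 in the libraries at 20% O2, 1.52, 1.71 and 1.77 in vehicle at 1% O2, and -0.01, -0.11 and -0.18 with 32-134D. The ratio differed by 3.36 (SE 0.13) with hypoxia and by -1.76 (SE 0.09) between 32-134D and hypoxic vehicle. The ratio of KDM4B to KDM4A was -0.74 ± 0.05 (SD, n = 3) at 20% O2, 0.41 ± 0.09 in vehicle at 1% O2 and -0.67 ± 0.10 with 32-134D with the length of all exons. With the length of the longest transcript, KDM4B was above KDM4A in all 3 groups, at 17.0 against 12.8, 40.8 against 13.7 and 18.6 against 13.3 CPM per kilobase, so which of them is higher depends on the length used, whereas the differences between groups do not. In these 4 differences the libraries of the groups did not overlap. With 3 libraries against 3 the two-sided exact permutation test cannot give a p below 0.1, which each of them reached (0.162 adjusted over 21 tests), so no ratio could pass 0.05.

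The other ratios varied less. KDM1A to KDM1B, its relative among the FAD-dependent enzymes, went from 2.13 ± 0.02 at 20% O2 to 1.61 ± 0.11 in vehicle at 1% O2 and 2.01 ± 0.07 with 32-134D, without overlap between any of the groups. KDM2B to KDM2A went from -2.56 ± 0.01 to -2.90 ± 0.05 and -2.72 ± 0.05, also without overlap. A ratio does not show which of its 2 genes differed. KDM1A itself had a log2 fold change of -0.09 (FDR 0.379) with hypoxia and 0.23 (FDR 0.0331) with 32-134D, without a call in either. KDM5B to KDM5A differed by 0.18 with hypoxia, with overlapping libraries, and by -0.24 with 32-134D, without overlap. The ratio of KDM6B to KDM6A, an H3K27 demethylase gene on the X chromosome, differed by -0.16 and 0.11, with overlap in both. KDM4C to KDM4A differed by 0.12 with hypoxia, but by -0.07 when all libraries were thinned to the depth of the smallest library.

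**Figure D4:**
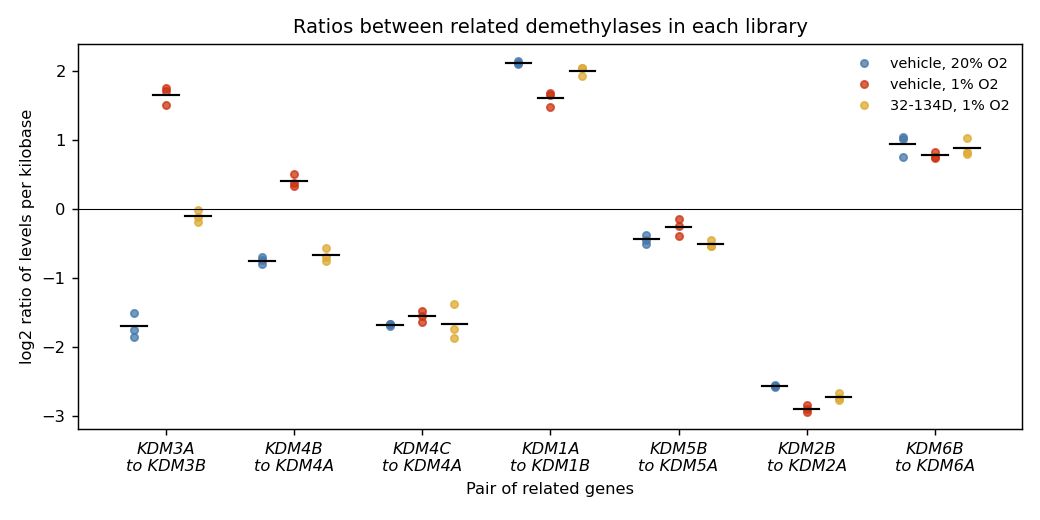
Log2 ratios of levels per kilobase for 7 pairs of related genes, with points for libraries coloured by group and black bars for means. The ratio of KDM3A to KDM3B is below 0 in all libraries at 20% O2, above 1.5 in all hypoxic vehicle libraries and just below 0 with 32-134D, whereas KDM4B to KDM4A with 32-134D lies beside the values at 20% O2.

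The genes with the pattern most like that of KDM3A over the 9 libraries, by root mean square difference in centred log2 CPM among 12305 protein-coding genes, were DUSP10 (0.11), a phosphatase of stress-activated kinases, KLF11 (0.16), a zinc finger transcription factor, and GADD45A (0.17), a growth arrest and DNA damage gene. For KDM4B they were HERPUD2, FLCN, the folliculin tumour suppressor gene, and NRBP1, each at 0.08. DUSP10 had a log2 fold change of 3.28 with hypoxia and -1.76 with 32-134D, beside 3.51 and -1.89 for KDM3A. DUSP10 was picked for its likeness over these same 9 libraries, so the closeness of these values follows from the choice.

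Of 14 other genes of the demethylase families, 13 could be tested and KDM4E could not. With hypoxia 2 rose and 1 fell, where 19.5% of all genes rose and 20.3% fell. KDM7A, which acts on H3K9 and H3K27, rose by 0.96 (SE 0.11, FDR 3.66e-06) and JMJD1C, a relative of KDM3A, by 0.77 (SE 0.11, FDR 1.83e-05). KDM8, another Jumonji gene, had a log2 fold change of -1.89 (SE 0.14, FDR 3.85e-08). With 32-134D, KDM8 rose by 1.44 (SE 0.14, FDR 9.56e-07) and no other gene of the list was called, KDM7A being at -0.41 (FDR 0.00437). Of all genes, 16.2% rose and 13.7% fell in that comparison, and the list was not tested against these shares. Over the 19 alternatives run, 1 to 3 of the list rose with hypoxia, and 1 to 2 rose and 0 to 1 fell with 32-134D. The list's median log2 fold change was 0.26 with hypoxia, close to the 0.24 of the 10 members, and -0.12 with 32-134D, or 0.05 and 0.06 with scaling by total counts. KDM8 was the one gene of both lists that hypoxia lowered past the thresholds.

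KDM1A works on chromatin in the CoREST complex, with RCOR scaffold proteins and histone deacetylases. Although KDM1A itself was not called, 5 of 8 partners rose with hypoxia and none fell. Among them, RCOR2 rose by 1.59 (SE 0.10), PHF21A by 0.94 (SE 0.10), HDAC2 by 0.74 (SE 0.08) and RCOR3 by 0.60 (SE 0.09). With 32-134D, 3 of the 8 fell, among them RCOR2 at -1.04 and PHF21A at -0.63, where 13.7% of all genes fell. That count lay between 2 and 4 over the 19 alternatives run. The count of 5 was 3 with scaling by the upper quartile or by total counts. The background of genes called higher with hypoxia was 19.5%, and the list was not tested against either share. Its median log2 fold change was 0.67 with hypoxia and -0.42 with 32-134D.

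KDM2B recruits the variant Polycomb complex PRC1.1, which ubiquitinates histone H2A. Of 9 partners, 4 rose with hypoxia and none fell, where 19.5% of all genes rose. RYBP, a Polycomb subunit, rose by 2.21 (SE 0.08, FDR 3.05e-11), RNF2, the ubiquitin ligase, by 0.84 (SE 0.11), PCGF1 by 0.79 (SE 0.09) and SKP1 by 0.62 (SE 0.09). RYBP at -1.02 and RNF2 at -0.73 fell with 32-134D, where 13.7% of all genes fell, and RYBP stayed higher than at 20% O2, by 1.196 (SE 0.08, FDR 3.32e-07). The list's median was 0.52 with hypoxia and -0.45 with 32-134D. With scaling by total counts 2 of the 9 rose with hypoxia and 1 fell with 32-134D.

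The methyltransferases that place the marks were described in the same way. Of 6 H3K4 methyltransferases, 3 fell with hypoxia and none rose, where 20.3% of all genes fell with hypoxia and 16.2% rose with 32-134D. KMT2D had a log2 fold change of -1.70 (SE 0.16), KMT2C of -1.02 (SE 0.13) and SETD1B of -0.83 (SE 0.12), and the same 3 rose with 32-134D, by 1.59, 0.97 and 0.69. Of 5 H3K36 methyltransferases, NSD1 at -1.02 (SE 0.11) and ASH1L at -0.90 (SE 0.10) fell with hypoxia and rose by 0.93 and 0.92 with 32-134D. These counts moved with transcript length and GC content. With those trends removed, 1 of the 6 H3K4 genes fell with hypoxia and 1 rose with 32-134D, and among the H3K36 genes none fell with hypoxia, 1 rose, and none was called with 32-134D.

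For H3K9 and H3K27, 1 gene of each list was called with hypoxia, where 39.7% of all genes were called, so neither count is above the background. EHMT1, an H3K9 methyltransferase, had a log2 fold change of -0.73 (SE 0.07, FDR 8.44e-07) with hypoxia and was 1 of 6 called, and SUZ12, a subunit of the H3K27 methyltransferase PRC2, rose by 0.61 (SE 0.07, FDR 1.32e-06) as 1 of 4. None of either list was called with 32-134D, where 29.9% of all genes were. With the length and GC trends removed, neither list had a call with hypoxia. The median log2 fold change of the H3K9 list was 0.11 with hypoxia and -0.15 with 32-134D, and under scaling by total counts these medians were -0.10 and 0.04.

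**Figure D5:**
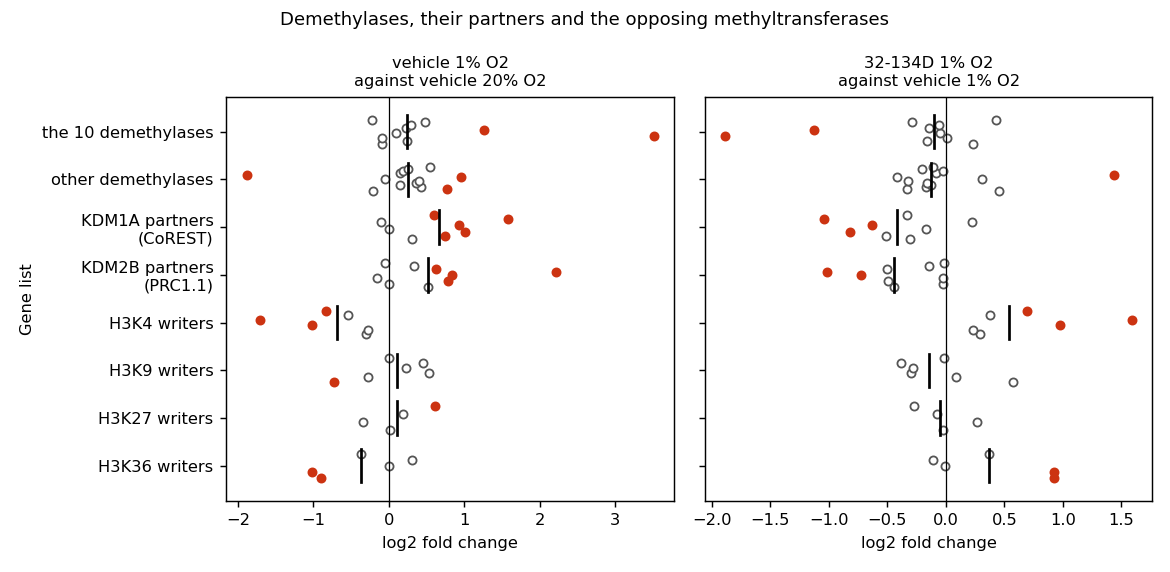
Log2 fold changes of the 10 demethylases, other demethylases, complex partners and methyltransferases in 2 comparisons, with 1 point per gene, filled red where called and open where not, and a black bar for the median of each list. The CoREST and PRC1.1 partners lie mostly right of 0 with hypoxia and left of 0 with 32-134D, and the H3K4 writers the other way, before removal of length and GC trends.

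The positions of the members come from GENCODE version 29 on GRCh38. KDM3A lies on chromosome 2 from 86440647 to 86492716 on the plus strand and KDM4B on chromosome 19 from 4969113 to 5153595 on the plus strand, and neither overlaps another annotated gene. KDM2B shares 439 exon bases with RNF34 and 224 with AC145422.1, and KDM5A shares 182 with CCDC77, each on the opposite strand. KDM4A shares 464 with its antisense gene KDM4A-AS1 and 2077 with AL451062.3 on its own strand, to which 0 counts were assigned, and KDM4C shares 135 with AL354707.1, also on its own strand. The strand setting of the counting is not given in the sources used here, so reads from these shared bases cannot be assigned with certainty. Their part in the results was not tested.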

How the data were processed

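Raw read counts of Ensembl genes (release 100, GRCh38) in 9 RNA-seq libraries were used as the authors deposited them. By the study's methods and the submitters' processing notes, reads were checked with FastQC, trimmed with Bbduk, mapped with STAR and counted with featureCounts. Versions and the strand setting are not given in the sources used here. All 9 columns were matched to samples by name and 0 were left unmapped.

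Counts were scaled with TMM and tested with the edgeR 4.0.16 quasi-likelihood test in R 4.3.3, in 1 fit of the 9 libraries, over 22672 genes with counts summing to at least 10. CPM used TMM library sizes, and log2 CPM a prior count of 2. Calls needed a Benjamini-Hochberg FDR below 0.05 over all genes and a fold change above 1.5. The common biological coefficient of variation was 10.5%. With 3 libraries per group, p-values measure the spread between these cultures. Library totals, 6013980 to 40549699, set the counting precision. Lengths and positions came from GENCODE version 29, and promoters from RefSeq. Ratios between related genes were compared with exact permutation tests, with Benjamini-Hochberg adjustment in scipy 1.17.1. The fitting procedure was tested on simulated data.

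The members and all lists were chosen with earlier results of these data known. The genes named are the 10 members, up to 6 called genes of each list in order of their change with hypoxia, the genes in the ratios and the 3 genes most like each member called in opposite directions. The values of 1 gene that the rule names are not reported here. The 7 liver markers and 7 markers of other cell types served as a check of the cells. Alternatives were DESeq2 1.42.0, 3 other scalings, 2 other filters, other fold thresholds, fits of 2 groups, thinning, a replicate block, removal of length and GC trends, another gene length, and leaving out each library.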

Additional observations from a re-analysis of the deposited data

How the results depend on the processing

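With 1 choice changed at a time, the calls of KDM3A (3 comparisons) and KDM4B (hypoxia and 32-134D) held under the 19 alternatives run, with log2 fold changes of KDM3A from 3.30 to 3.65, -2.11 to -1.70 and 1.55 to 1.69, and of KDM4B from 1.05 to 1.48 and -1.27 to -0.94. Without the fold threshold, 5 members were higher with hypoxia and 2 with 32-134D, against 27.9% and 21.9% of all genes. With the length and GC trends removed 4 were higher with hypoxia (16.3% of all genes), and with scaling by total counts 1 was higher with 32-134D (21.0%). The causes of these and the following changes were not tested.

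Of the members' log2 fold changes under alternatives, 533 kept their direction and side of the thresholds, 4 passed them only then (given with the members above) and 33 changed sign, none of them a called value. In the 32-134D comparison, KDM4A was 0.012 with DESeq2 or its size factors, 0.075 with upper quartile scaling, 0.14 with total counts, 0.048 with 10 counts in every library, 0.018 in a fit of 2 groups, 0.0053 after thinning and 0.0095 with the trends removed. KDM5A there was 0.0036 with DESeq2 or its size factors, 0.067 with upper quartile scaling, 0.13 with total counts, 0.039 with 10 counts in every library, 0.0096 in a fit of 2 groups and 0.0086 after thinning. KDM4C was 0.044 with total counts and 0.049 after thinning, KDM2A 0.023 with total counts and KDM2B -0.18 with the trends removed. With hypoxia, KDM4A was -0.092 with upper quartile scaling, -0.11 with total counts and -0.0087 with 10 counts in every library, and with the trends removed KDM2B was 0.18 and KDM6B 0.12. Between 32-134D and 20% O2, KDM4A was -0.017 with upper quartile scaling. The ratio of KDM4C to KDM4A after thinning differed by -0.066 with hypoxia, 0.032 with 32-134D and -0.034 between 32-134D and 20% O2.

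Leaving out 1 library gave, with 32-134D, KDM2B from -0.0047 to 0.083, KDM4A from -0.056 to 0.012 and KDM5A from -0.088 to 0.019. Between 32-134D and 20% O2 it gave KDM4C from -0.080 (without replicate 3 of 32-134D) to 0.20, the ratio of KDM4C to KDM4A from -0.13 to 0.11 and that of KDM6B to KDM6A from -0.15 to 0.0020.

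Over all genes, 4412 were higher with hypoxia, 2449 at 2-fold and 2824 with 10 counts in every library. With 32-134D 3100 were lower, 5788 without the fold threshold, 1188 at 2-fold, 1847 with total counts and 1771 with 10 counts in every library. Between 32-134D and 20% O2, 681 were higher (1771 and 283) and 117 lower (553 and 21 for these thresholds, 247 with upper quartile scaling, 291 without a filter, 39 in a fit of 2 groups and 35 to 198 with 1 library left out). The share of higher genes among those called was 49.0% with hypoxia and 54.2% with 32-134D, against 35.7% and 66.1% with upper quartile scaling and 34.5% and 72.0% with total counts. Between 32-134D and 20% O2 it was 85.3%, against 68.4% with upper quartile scaling.

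The replicate numbers were not treated as pairs. Same-numbered libraries deviated from their group means with correlations of -0.21 to 0.085. With 3 libraries per group, this cannot show whether same-numbered cultures were handled together. With a replicate block, 4296 genes were higher with hypoxia, 2 members were higher with hypoxia, 2 lower with 32-134D and 1 higher against 20% O2, as without it.

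The smallest library held 6013980 counts, and KDM6B had the largest standard errors of the members.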
